A study of Mus musculus with 3 samples.

Results

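Cluster 7 is a group of conventional type 1 dendritic cells (cDC1s) from mouse tumours that carries the working name of interferon-stimulated cells, with *Ifit2*, *Isg20* and *Isg15* as its markers. Its members were chosen by cluster number alone, as the cells placed in cluster 7 at a resolution of 0.8 in the deposited cell table. This gave 422 of the 5806 cDC1s in the table, 154 from WT, 134 from sGSN-/- and 134 from sGSN-/-Clec9a-/- mice, while the 3 libraries together held 30209 barcodes. Droplet scRNAseq had been run on pre-cDCs, cDC1s and cDC2s sorted on day 5 from tumours of MCA205 LA-OVA cells and then mixed. MCA205 LA-OVA is a transplantable fibrosarcoma line that carries the model antigen OVA. The design asks whether tumour cDC1s differ with the loss of secreted gelsolin, a plasma protein that covers exposed actin filaments, and of DNGR-1, the cDC1 receptor that binds those filaments on dead cells.

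WT mice were C57BL/6J, sGSN-/- mice lacked secreted gelsolin, and sGSN-/-Clec9a-/- mice lacked secreted gelsolin and also *Clec9a*, the gene of DNGR-1. The mutants had been backcrossed to C57BL/6J, and the genotypes were co-housed. Mice were 6 to 20 weeks old and carried the tumour in every group. Each genotype gave 1 library from pooled animals, 25 males and 12 females for WT, 15 males and 16 females for sGSN-/-, and 10 males and 17 females for sGSN-/-Clec9a-/-. There is thus no replicate library within a genotype, and a genotype cannot be told apart from its library or from the sexes in its pool. Values of the 3 libraries are given throughout in the order WT, sGSN-/- and sGSN-/-Clec9a-/-.

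Interferons are secreted proteins that act through cell surface receptors, JAK kinases and STAT factors to switch on a broad set of interferon-stimulated genes. Cells release type I interferons on sensing viral or misplaced nucleic acids. Type I interferons act mainly through a complex with STAT2 and IRF9 that binds the interferon-stimulated response element, while interferon gamma acts mainly through gamma-activated sites. cDC1s take up dead cells and present their antigens to CD8+ T cells, and sensing of type I interferon by cDC1s is needed for efficient priming against several mouse tumours.

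Cluster 7 made up 6.65% of the WT cDC1s (exact Clopper-Pearson 95% interval 5.67 to 7.74), 7.83% of the sGSN-/- cDC1s (6.60 to 9.20) and 7.54% of the sGSN-/-Clec9a-/- cDC1s (6.35 to 8.86). The 3 intervals overlapped, and here as elsewhere they cover counting error only. The cells of cluster 7 summed to 2280298, 2111582 and 1754536 UMIs, against 30395879, 21451465 and 19719014 UMIs for the other cDC1s. The median cell of cluster 7 held 14253.5 UMIs and that of the other 5384 cDC1s 13428.5 UMIs, so depth per cell was close. Scrublet placed 0 of the 422 cells of cluster 7 among the 6% of barcodes with the highest doublet scores of their library, against 92 of the other cDC1s. A count of 0 among 422 allows a share of up to 0.711%. No barcode of cluster 7 occurred in more than 1 library, while 2, 2 and 3 barcodes were shared between pairs of libraries among all cDC1s.

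Raw UMI counts were summed per library over the cells of a group and are given as CPM, that is, scaled so that all genes of a sum add up to 1000000. Log2 fold changes come from edgeR with the 3 libraries as replicates, and a gene is said to be called where its quasi-likelihood p, adjusted over all genes tested by Benjamini-Hochberg, fell below 0.05. The clusters had themselves been called on these counts, so the comparison of cluster 7 with other clusters is no test of a difference. Its log2 fold changes and calls only describe which genes set the cells apart and how alike the 3 libraries were.

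*Clec9a* was read first, as the gene removed in 1 of the genotypes. It stood at 203, 229 and 0.570 CPM in cluster 7. The last of these values is 1 UMI (Poisson 95% interval 0.0144 to 3.18 CPM), so the library labelled sGSN-/-Clec9a-/- had close to no transcript and both other libraries had it. Counts of *Gsn* do not check the sGSN-/- label, because the deletion is of the secreted form.

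The cDC1 label was then set against its markers. *Xcr1*, the receptor for the chemokine XCL1 and a surface marker of cDC1s, stood at 244, 252 and 255 CPM in cluster 7 and at 202, 219.8 and 231 CPM in the other cDC1s. *Batf3*, a factor needed for the cDC1 lineage, stood at 289, 315 and 294 CPM against 260.2, 264 and 258 CPM. *Irf8*, the factor that sets and keeps cDC1 fate, stood at 1271, 1236 and 1164 CPM against 1215, 1174 and 1197 CPM. All 3 genes were thus present in cluster 7 at no less than about the level of the other cDC1s, and *Irf8* was not called, though it was with the library as a block and with DESeq2, at 0.16 in both. *Xcr1* and *Batf3* were called at 0.32 (SE 0.08) and 0.32 (SE 0.07), but *Xcr1* not without the WT library (0.29) or without the sGSN-/- library (0.32), *Batf3* not without the sGSN-/- library (0.28), and neither of them without TMM factors.

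*Isg15*, *Ifit2* and *Isg20* are the genes by which the study describes the cluster. *Isg15* (ENSMUSG00000035692, chromosome 4, 156199424 to 156200818, minus strand) encodes a ubiquitin-like protein that is attached to other proteins after interferon, and it stood at 1341, 1542 and 1299 CPM in cluster 7 against 109, 139 and 101 CPM in the other cDC1s, a log2 fold change of 3.71 (SE 0.11). *Ifit2* (ENSMUSG00000045932, chromosome 19, 34550694 to 34576419, plus strand), whose product binds RNA and restrains viral translation, stood at 267, 364 and 309 CPM against 10.8, 14.2 and 11.9 CPM, with a log2 fold change of 4.81 (SE 0.14). *Isg20* (ENSMUSG00000039236, chromosome 7, 78913424 to 78920396, plus strand), an exonuclease that degrades RNA, stood at 289, 309 and 321 CPM against 20.1, 27 and 27.4 CPM, with a log2 fold change of 3.75 (SE 0.13). In each of the 3 libraries the value of cluster 7 lay far above every value of the other cDC1s. These genes took part in the clustering, so their levels are no test of the name. Positions are on GRCm38 with the GENCODE M21 genes, and no other gene overlaps these 3.

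Across all genes, 1113 of the 10825 tested were called higher in cluster 7 than in the other cDC1s (10.3%) and 490 were called lower (4.53%), so that 69.4% of the calls were higher. This balance depended on scaling and on the libraries. With library size alone in place of TMM factors, 799 were called higher and 1043 lower, 43.4% higher, and the median log2 fold change of all genes moved from -0.03 to -0.15. Leaving out a library in turn brought the calls to 742, 775 and 862 higher and 167, 199 and 266 lower, 81.6, 79.6 and 76.4% higher. The medians of most lists are therefore given with both scalings, and calls added with the library as a block, which the shared pools of mice allow, are stated for several lists and genes. The shares of 10.3% and 4.53% are the background for the calls of each list against the other cDC1s.

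Transcripts of interferons themselves were close to absent. Of the 17 interferon genes listed, none had enough counts to be tested. Cluster 7 held 0 UMIs of *Ifnb1*, the gene of interferon beta, 1 UMI of *Ifng*, the gene of interferon gamma, and 2 UMIs of *Ifnl2*, a type III interferon. The other cDC1s held 14, 47 and 61 UMIs of these genes and 36 UMIs of *Ifnl3*. A count of 0 in the 6146416 UMIs of cluster 7 allows a level of up to 0.488 CPM, so a lower level would not have been detectable at this depth.

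The receptors and their kinases changed little as a list. Of 9 members, 8 were tested, with 3 called higher in cluster 7 (37.5%, against 10.3% of all genes) and 1 lower (12.5% against 4.53%). Their median log2 fold change was 0.06, which turned to -0.06 without TMM factors. *Ifngr1* (ENSMUSG00000020009, chromosome 10, 19591949 to 19610229, plus strand), the ligand-binding chain of the interferon gamma receptor, was the member that was lower. Its levels were 155, 126 and 148 CPM in cluster 7 against 300.3, 261 and 267 CPM in the other cDC1s, a log2 fold change of -0.82 (SE 0.09). All 3 values of cluster 7 lay below all 3 of the others. Low *Ifngr1* was not particular to cluster 7. Its mean there was 143 ± 15.3 CPM (SD over 3 libraries), against 89.4 ± 21.5 CPM in cluster 8 and 96.8 ± 55.6 CPM in cluster 10. The chains of the type I receptor, *Ifnar1* and *Ifnar2*, had log2 fold changes of 0.40 (SE 0.08) and 0.25 (SE 0.08), and both lost their call without TMM factors and without the WT library (0.39 and 0.19). *Ifnar1* also lost it without the sGSN-/-Clec9a-/- library (0.34) and *Ifnar2* without the sGSN-/- library (0.24), after thinning (0.29) and with no filter on low counts (0.22). *Il10rb*, a chain shared by the receptors of interleukin 10 and of type III interferons, had 0.72 (SE 0.12), with no call after thinning (0.56). *Jak2*, a kinase of the interferon gamma receptor, was not called, at 0.10.

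Among 16 IRF and STAT factors, which carry the signal to the genome, 6 of 16 tested were called higher and 1 lower. These were 37.5% and 6.25%, against 10.3% and 4.53% of all genes. The median was 0.19, or 0.07 without TMM factors. With the library as a block 8 were called higher and 1 lower, and the member called lower without it lost its call. *Irf7* (ENSMUSG00000025498, chromosome 7, 141262706 to 141266481, minus strand), the factor that drives most interferon alpha genes and is itself induced by interferon, stood at 1064, 1289.5 and 1029.9 CPM in cluster 7 and at 123, 143 and 125 CPM in the other cDC1s, a log2 fold change of 3.24 (SE 0.10). *Stat2*, a factor of type I signalling, stood at 219, 199 and 180.1 CPM against 74.8, 69.8 and 62.5 CPM, a log2 fold change of 1.66 (SE 0.08). For both genes the values of cluster 7 were above those of the other cDC1s in all 3 libraries, without overlap. *Irf5*, a factor downstream of Toll-like receptors, and *Stat4*, which carries interleukin 12 signals, were not called, at 0.22 and -1.03, but were with the library as a block, at 0.22 and -1.06. The gene model of *Irf7* overlaps that of *Phrf1* on the genome.

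Sensors of nucleic acids were higher for the most part. Of 18 members, 15 were tested, 10 were called higher (66.7%, against 10.3% of all genes) and the others were not called. The median was 0.56 (0.44, with 9 called higher, without TMM factors). *Ddx58*, the gene of RIG-I, which binds RNA with a 5′ triphosphate, stood at 25.4, 28.9 and 33.1 CPM in cluster 7 against 1.88, 3.73 and 3.09 CPM, a log2 fold change of 3.48 (SE 0.25). *Ifih1*, the gene of MDA5, which binds long double-stranded RNA, stood at 114, 169 and 129.9 CPM against 16, 20.1 and 17.3 CPM, with 3.08 (SE 0.14). *Zbp1*, a sensor of Z-form nucleic acids that can start cell death, stood at 398, 425 and 415 CPM against 73.8, 81.4 and 81.5 CPM, with 2.51 (SE 0.08). In these 3 cytosolic sensors the values of cluster 7 did not overlap those of the others. *Samhd1*, which removes deoxynucleotides and so limits reverse transcription, had 1.51 (SE 0.06), and *Dhx58*, the gene of the RIG-I-like helicase LGP2, 2.25 (SE 0.10). *Tlr3*, an endosomal receptor for double-stranded RNA that cDC1s carry, had 0.49 (SE 0.08), and *Unc93b1*, which carries Toll-like receptors to endosomes, was not called at 0.17, though it was with the library as a block and with DESeq2, at 0.17 and 0.18.

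The list of type I interferon-stimulated genes moved as a whole. Of its 82 members, 80 were found in the matrices and 77 were tested, and 77 of these 77 were called higher in cluster 7, with a median log2 fold change of 2.27 against -0.03 over all genes tested. The 3 members that were not tested had too few counts, and the lowest value among those tested was 0.31. Without TMM factors, 76 of the 77 were called higher and the median was 2.14. Over the 12 clusters, 66 of the 79 members with counts had their highest mean level in cluster 7, where 438 of the 10825 genes tested did. Of the other lists, those of IRF and STAT factors, sensors and feedback inhibitors share 4, 5 and 2 genes with it. *Mx1* and *Mx2* are listed members that are not analysed here.

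The IFIT genes, which encode RNA-binding proteins that block translation of viral messages, held large changes. *Ifit3* (ENSMUSG00000074896, chromosome 19, 34583531 to 34588731, plus strand) stood at 133, 166 and 164 CPM in cluster 7 and at 3.55, 5.87 and 4.31 CPM in the other cDC1s, a log2 fold change of 5.22 (SE 0.16). *Ifit1* (ENSMUSG00000034459, chromosome 19, 34640871 to 34650009, plus strand) stood at 62.7, 38.4 and 60.4 CPM against 2.07, 3.82 and 2.28 CPM, with 4.45 (SE 0.23). *Ifit3b*, a near-identical copy of *Ifit3* beside it on chromosome 19, had 4.87 (SE 0.26), and the sources do not say whether the counting kept their reads apart, so the values of both are uncertain. In each of these genes every library of cluster 7 was above every library of the other cDC1s.

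Enzymes of the antiviral response followed. *Rsad2* (ENSMUSG00000020641, chromosome 12, 26442746 to 26456452, minus strand), the gene of viperin, which makes a chain-ending nucleotide, stood at 253, 275 and 321 CPM in cluster 7 and at 12.8, 22.1 and 14.6 CPM in the other cDC1s, a log2 fold change of 4.23 (SE 0.18). *Cmpk2*, its neighbour on chromosome 12 and a nucleotide kinase, stood at 56.6, 59.2 and 65 CPM against 4.74, 4.71 and 5.98 CPM, with 3.68 (SE 0.14). Both were several-fold above the other cDC1s in every library. *Oasl1* and *Oasl2*, relatives of the oligoadenylate synthetases, stood at 124, 171 and 127 CPM and 71.5, 75.8 and 72.4 CPM in cluster 7. Their levels in the other cDC1s were 10.1, 17.1 and 10.5 CPM and 5.69, 8.39 and 5.68 CPM, for log2 fold changes of 3.62 (SE 0.18) and 3.61 (SE 0.14). *Oasl1* was not particular to cluster 7 among the clusters, since its mean there, 141 ± 26.7 CPM (SD over 3 libraries), lay within the spread of that in cluster 8, 138 ± 37 CPM.

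*Ifi213* and *Ifi204*, members of the p200 family of DNA-binding proteins, had log2 fold changes of 4.12 (SE 0.11) and 3.51 (SE 0.10). *Ifi213* stood at 93.8, 113 and 95.8 CPM in cluster 7 against 5.76, 6.76 and 6.64 CPM, and *Ifi204* at 328, 369.9 and 308 CPM against 28.9, 33.3 and 33.9 CPM. The p200 genes are close relatives in 1 tract of chromosome 1, and their values are uncertain to the extent that reads could be counted for a relative. At the highest level among listed members stood *Ifitm3*, which blocks entry of viruses through endosomes, at 2537, 2564 and 2536 CPM against 912, 992 and 982 CPM, a log2 fold change of 1.53 (SE 0.07). *Ifi27l2a*, a mitochondrial protein induced by interferon, had 1.46 (SE 0.08), *Slfn5*, a Schlafen family member, 2.53 (SE 0.07), and *Bst2*, the gene of tetherin, which holds budding virus at the surface, 1.68 (SE 0.07). *Ifitm3* and *Ifi27l2a* were thus already abundant in the other cDC1s and rose by a smaller factor, while *Ifit1* and *Ifit3* were at a few CPM there.

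**Figure D1:**
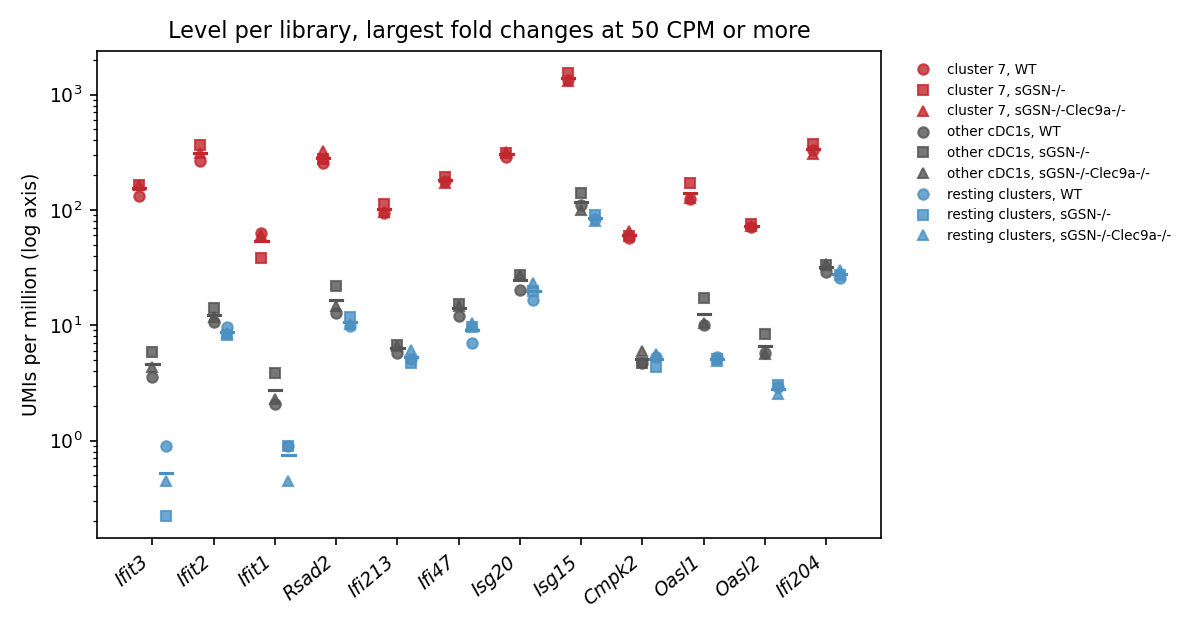
Level of the 12 genes with the largest log2 fold change of cluster 7 against the other cDC1s among genes called, changed alike in all 3 libraries and at a mean of 50 CPM or more in cluster 7, in CPM on a log axis, with 1 point per library for cluster 7, the other cDC1s and the resting clusters, and bars at the means of 3 libraries. *Ifit3* stood at 133, 166 and 164 CPM in cluster 7 and at 3.55, 5.87 and 4.31 CPM in the other cDC1s.

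Per cell, the listed interferon-stimulated genes took a median of 2.15% of the UMIs of a cluster 7 cell (quartiles 1.67 and 2.89%), with a lowest value of 0.903% and a highest of 7.09%. The median over the other cDC1s was 0.569%, and 0 of the 422 cells of cluster 7 lay below it. Of the 5384 other cDC1s, 34 lay above the median of cluster 7, of which 12 were in cluster 8, 10 in the early clusters, 5 in the resting clusters, 4 in cluster 9 and 3 in cluster 10. The median of cluster 10, the next highest, was 1.25%. The cluster was therefore a range of values at the upper end of the cDC1s that overlapped other clusters. Single cells of other clusters reached its upper part, up to 6.31% in cluster 8. The lowest value of cluster 7 lay below the lower quartile of cluster 10, 1.01%, and at about the upper quartile of cluster 4, 0.904%. These genes took part in the clustering, so this spread is a description.

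**Figure D2:**
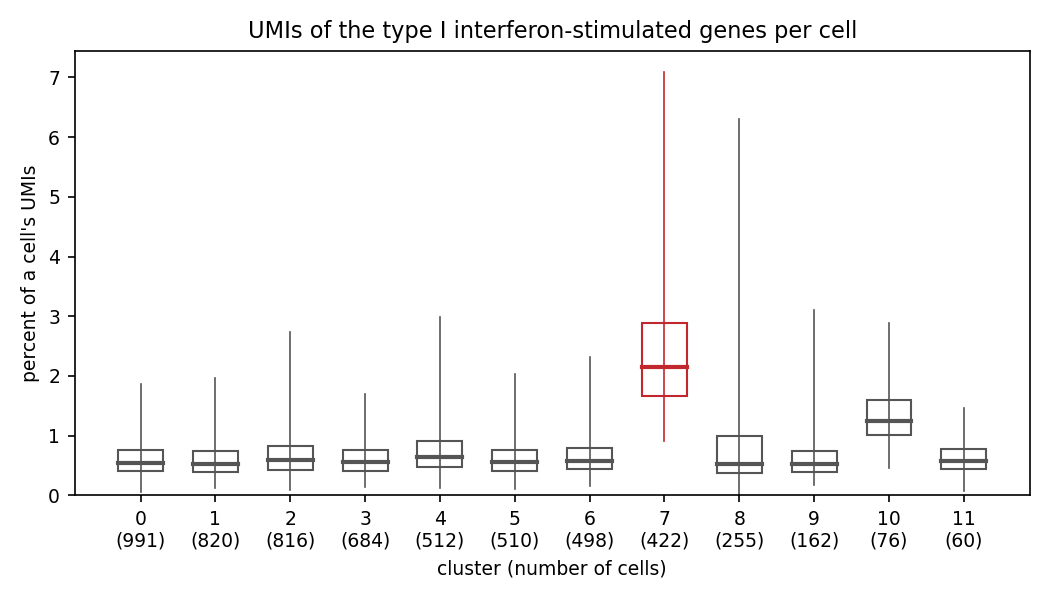
Percent of each cell's UMIs from the type I interferon-stimulated genes, by cluster of the cDC1s, with the number of cells of each. Thin lines run from the lowest to the highest cell, boxes mark the quartiles and thick lines the medians, 2.15% in cluster 7 and 1.25% in cluster 10.

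The genes of the list differed in how their UMIs were spread over the cells of cluster 7. The 43 cells with the most UMIs of a gene, 10% of the cluster, held 21.3% of the UMIs of *Ifitm3*, 27.7% for *Irf7* and 31.8% for *Isg15*. The 43 deepest cells held 16.5% of all UMIs of the cluster. For *Ifit2* the top 43 cells held 50.9%, for *Ifit3* 76.6% and for *Ifit1* 80.00%. *Ifit1* and *Ifit3* were thus carried by a small part of the cells, and *Ifitm3* by most. Low counts per cell also raise this share, and their part in it was not tested.

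The GTPases of the GBP and IRG families, which attack the membranes around intracellular pathogens, were listed with other targets of interferon gamma. Of 34 members, 33 were in the matrices and 27 were tested against the other cDC1s. Of these, 20 were called higher (74.1%, against 10.3% of all genes) and 1 lower, at a median of 2.06. With the library as a block 23 were called higher and 1 lower. The summed level of the list was 1756, 1824 and 2015 CPM in cluster 7 against 645, 694 and 676 CPM in the other cDC1s. The chemokine genes *Cxcl9* and *Cxcl10* belong to this list, and with 519, 517 and 588 CPM and 132, 199 and 401 CPM in cluster 7, held by few cells as given below, they made up a large part of its sum. *Ifi47*, an IRG GTPase, stood at 179, 192 and 172 CPM against 11.9, 15.2 and 14.8 CPM, a log2 fold change of 3.82 (SE 0.11). *Iigp1*, another IRG GTPase, stood at 43.4, 23.7 and 13.1 CPM against 1.38, 2.24 and 2.84 CPM, with 3.83 (SE 0.36), and its 3 values in cluster 7 were far apart, with WT highest. Only 46 of the 422 cells of cluster 7 held UMIs of *Iigp1*, and the 43 cells richest in it held 98.3% of them. *Tgtp2*, with a near-identical copy in *Tgtp1* and hence an uncertain value, had 3.80 (SE 0.21). *Fcgr1*, the high-affinity receptor for IgG, stood at 70.2, 52.1 and 67.3 CPM against 6.19, 7.88 and 7.81 CPM, with 3.25 (SE 0.15). *Ciita*, the master factor of MHC class II genes, was not called, at -0.02.

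Cluster 10, with 76 cells, is the other cDC1 cluster rich in interferon-related genes, and the lists divided the clusters. Against cluster 10, 369 of 6484 genes were called higher in cluster 7 (5.69%) and 306 lower (4.72%). Of the type I interferon-stimulated genes, 49 of 73 tested were called higher in cluster 7 and the rest were not called, at a median log2 fold change of 1.11 against -0.003 over all genes. Of the GBP and IRG list, 16 of 25 were called lower in cluster 7 and the rest were not called, at a median of -1.76. By mean level, 20 of the 33 members of that list were highest in cluster 10 and 2 in cluster 7. The difference between the lists was not tested.

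Single genes showed the same division. *Ifit3* stood at 28.3, 3.22 and 0 CPM in cluster 10, where the last library held 0 UMIs, and its log2 fold change in cluster 7 against cluster 10 was 3.98 (SE 0.42). *Isg15* had 2.14 (SE 0.13), *Rsad2* 2.83 (SE 0.29) and *Irf7* 1.66 (SE 0.15). *Cxcl9* and *Cxcl10*, chemokines that draw T and NK cells through CXCR3, had -3.10 (SE 0.13) and -2.85 (SE 0.31). *Cxcl9* stood at 519, 517 and 588 CPM in cluster 7, at 4745, 4982 and 4769.6 CPM in cluster 10 and at 22.1, 16.1 and 12.7 CPM in the resting clusters. Cluster 7 was thus between the other groups for *Cxcl9*, with no overlap on either side. *Ifi47* was not called between clusters 7 and 10, at -0.18, and *Iigp1* had -2.0 (SE 0.35).

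Of the genes with the largest changes against cluster 10 by the naming rule, *Cxcr3*, the receptor of CXCL9 and CXCL10, had 4.11 (SE 0.48), with 64, 55.9 and 52.4 CPM in cluster 7 against 7.09, 3.22 and 0 CPM. *Ccl7* and *Ccl2*, chemokines that draw monocytes, had 3.83 (SE 0.69) and 3.63 (SE 0.32), whereas against the other cDC1s *Ccl2* was not called, at 0.11. Only 38 cells of cluster 7 held UMIs of *Ccl7*, and the 43 cells richest in *Ccl2* held 82.8% of its UMIs. *Cmpk2* had 3.20 (SE 0.47). At the other end stood *AA467197*, at -4.10 (SE 0.24), *Sdc4*, a heparan sulphate proteoglycan, at -4.04 (SE 0.37), *Pdcd1lg2*, the gene of PD-L2, at -3.81 (SE 0.41), *Cd209a*, a lectin of the DC-SIGN family, at -3.63 (SE 0.45), and *Serpina3g*, a protease inhibitor, at -3.36 (SE 0.28). The libraries of cluster 10 were far apart for *Cd209a*, at 109.8, 448 and 73.6 CPM, and for *Serpina3g*, at 269, 709 and 395 CPM, and 36 of the 101 UMIs of *Cd209a* in cluster 7 came from 1 cell. Cluster 10 summed to 891318 UMIs, so fewer genes could be tested there than against the other groups.

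**Figure D3:**
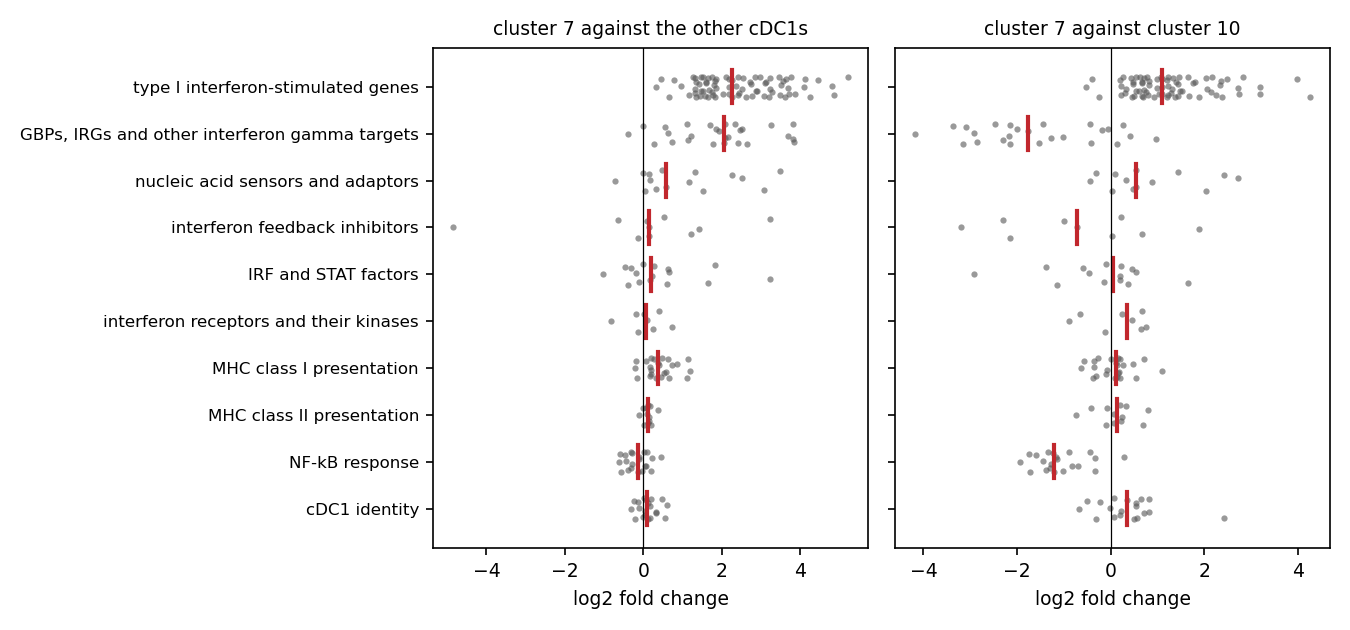
Log2 fold change of the tested members of 10 gene lists in cluster 7 against the other cDC1s and against cluster 10, 1 point per gene, with red lines at the medians. The GBP and IRG list has a median of 2.06 against the other cDC1s and of -1.76 against cluster 10.

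Feedback inhibitors of the pathway moved in both directions. Of 10 members, all tested, 4 were called higher in cluster 7 (40%, against 10.3% of all genes) and 2 lower (20% against 4.53%). The median was 0.15 (0.02 without TMM factors). *Usp18* (ENSMUSG00000030107, chromosome 6, 121245906 to 121270917, plus strand), which takes ISG15 off proteins and blocks the type I receptor, stood at 282, 341 and 275 CPM in cluster 7 against 32.6, 36.4 and 35.7 CPM, a log2 fold change of 3.22 (SE 0.10). *Socs1*, an inhibitor of JAK kinases, stood at 34.6, 46.4 and 32.5 CPM against 18.3, 17.8 and 17.4 CPM, with 1.21 (SE 0.13). *Socs3*, which restrains signalling by interleukin 6 and related cytokines, stood at 55.3, 42.1 and 34.2 CPM against 72, 75.7 and 77.3 CPM, with -0.64 (SE 0.12). *Usp18* and *Socs1* were higher in every library of cluster 7 and *Socs3* was lower in every one. *Trim30a*, which restrains Toll-like receptor signalling, had 1.42 (SE 0.07), the phosphatase gene *Ptpn6* 0.53 (SE 0.08), and *Ptpn1*, another phosphatase gene, was not called at -0.13. Against cluster 10, *Socs1* was lower at -2.16 (SE 0.24) and *Socs3* at -2.30 (SE 0.19).

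Genes of MHC class I presentation were called higher by small factors in part of the list. All 24 members were tested. Of these, 14 were called higher in cluster 7 than in the other cDC1s (58.3%, against 10.3% of all genes). The rest were not called, and the median was 0.38. Of the rest, 3 lay lower in all libraries of cluster 7 than in any of the other cDC1s. Without TMM factors 13 were called higher and 2 lower, at a median of 0.26, and with the library as a block 18 were called higher and 2 lower. *B2m*, the light chain of class I molecules, stood at 1513, 1451 and 1493 CPM against 1115, 1152 and 1097 CPM, a log2 fold change of 0.53 (SE 0.06). *H2-T23*, the gene of the non-classical molecule Qa-1, stood at 489, 552 and 418 CPM against 296, 317 and 272 CPM, with 0.85 (SE 0.09). The 3 libraries of cluster 7 lay above all those of the other cDC1s for both genes. *Nlrc5*, the factor that switches on class I genes, had 1.10 (SE 0.13), *H2-T22*, a ligand of some gamma delta T cells, 1.19 (SE 0.12), and *Psme2b*, a copy of a proteasome activator subunit gene and thus uncertain, 1.14 (SE 0.13). *Psme1*, the partner subunit, had 0.45 (SE 0.06), *Psmb8*, an immunoproteasome subunit, 0.36 (SE 0.08), and the classical heavy chain *H2-D1* 0.26 (SE 0.07), a call that was lost without TMM factors, after thinning (0.24), without the WT library (0.27) and without the sGSN-/- library (0.22). *Psmb8* was not called without the sGSN-/- library (0.37), nor *Psme2b* after thinning (0.78). High class I genes were not particular to cluster 7. By mean level, 10 of the 24 members were highest in cluster 8 and 3 in cluster 7. *B2m* had 2878 ± 459 CPM in cluster 8 and 1485 ± 31.8 CPM in cluster 7 (SD over 3 libraries). Against cluster 10, 1 of the 24 was called higher in cluster 7 and 0 lower.

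MHC class II genes were close to the other cDC1s. Of 12 members tested, 1 was called higher in cluster 7, *H2-Oa*, a chain of the modulator H2-O, at 0.38 (SE 0.10), and it was not called without TMM factors, after thinning (0.24), without the WT library (0.34) or without the sGSN-/- library (0.27). The 1 of 12 makes 8.33%, against 10.3% of all genes. With the library as a block 6 of the 12 were called higher. The median of the list was 0.13, or 0.0 without TMM factors. *Cd74*, the invariant chain, had 0.17 (SE 0.07), and *H2-Aa*, *H2-Ab1* and *H2-Eb1*, chains of the presenting molecules, 0.14, 0.14 and 0.12. These 4 were not called, and neither was *Ctss*, the protease that trims the invariant chain, at 0.20, but all 5 were called higher with the library as a block, at 0.17, 0.14, 0.14, 0.12 and 0.20.

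Of 24 genes of costimulation, checkpoints and cytokines, 20 were tested, 6 were called higher in cluster 7 and 1 lower. These were 30% and 5%, against 10.3% and 4.53% of all genes. The median was 0.07 and turned to -0.05 without TMM factors, and with the library as a block 7 were called higher and 2 lower. When set against the resting clusters (0, 2, 3, 5 and 6), 11 of 20 were called higher and 0 lower, at a median of 0.42. *Il15*, a cytokine that keeps memory CD8+ T cells and NK cells alive, stood at 30.7, 31.7 and 18.8 CPM against 6.91, 6.62 and 6.85 CPM, a log2 fold change of 2.14 (SE 0.17). *Cd40*, the receptor for CD40 ligand of T cells, stood at 68.4, 92.8 and 76.4 CPM against 22.4, 26 and 18.4 CPM, with 1.95 (SE 0.13). *Cd86*, a ligand of CD28, stood at 244, 271 and 259.9 CPM against 179.7, 181 and 166 CPM, with 0.68 (SE 0.07). Cluster 7 was above the other cDC1s in every library for these 3 genes. *Il15* was also higher than in cluster 10, at 2.64 (SE 0.61), whereas *Cd40* was lower there, at -1.43 (SE 0.17). *Cd83*, a maturation marker, *Havcr2*, the gene of TIM-3, and *Il1b* were not called, at 0.19, 0.07 and 0.07, though *Cd83* was with the library as a block, at 0.19. By mean level over the clusters, 14 of the 24 members were highest in cluster 8 and 1 in cluster 7. *Cd40* and *Cd86* were highest in cluster 8, at 243 ± 74.6 and 421 ± 19.2 CPM (SD over 3 libraries). *Il15* had 30.2 ± 4.73 CPM in cluster 8 and 27.1 ± 7.18 CPM in cluster 7, means that lay within each other's SDs.

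What was lower in cluster 7 depended on what it was set against. The other cDC1s include cluster 8, in which genes of migratory, CCR7-bearing cells are high, so the resting clusters 0, 2, 3, 5 and 6 with 3499 cells served as a second reference. Against these, 1293 of 10269 genes were called higher in cluster 7 (12.6%) and 674 lower (6.56%), 65.7% of the calls being higher. Without TMM factors these were 947 and 1246, 43.2% higher, and the median of all genes moved from -0.03 to -0.14. *Il12b*, the p40 chain of interleukin 12, stood at 11.8, 8.52 and 8.55 CPM in cluster 7, at 88, 136 and 37.2 CPM in the other cDC1s and at 5.25, 6.76 and 5.23 CPM in the resting clusters. Its log2 fold change was -3.02 (SE 0.53) against the other cDC1s and 0.88 (SE 0.23) against the resting clusters. *Ccr7*, the receptor that guides cells to lymph nodes, was at -3.60 (SE 0.71) and 3.0 (SE 0.58), and *Ccl22*, a chemokine that draws regulatory T cells, at -2.39 (SE 0.41) and 2.08 (SE 0.34). All 3 were thus lower than in the other cDC1s and called higher than in the resting clusters, but on few UMIs. Cluster 7 held 60 UMIs of *Il12b*, 40 of *Ccr7* and 69 of *Ccl22*, with 19, 19 and 23 of them in a single cell, so the values against the resting clusters rest on few cells.

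The list of chemokines and the CCR7 programme was read against both references. Of 22 members, 21 were in the matrices. Against the other cDC1s, 3 of 20 tested were called higher in cluster 7 (15%, against 10.3% of all genes) and 10 lower (50% against 4.53%). The median was -1.48, and with the library as a block 13 were called lower. Against the resting clusters, 5 of 16 were called higher and 2 lower, at a median of 0.19. *Cxcl9* and *Cxcl10*, 2 of the 3 members called higher against the other cDC1s, had 2.33 (SE 0.11) and 2.47 (SE 0.30), and the other was *Ccl4*, a chemokine of activated immune cells, at 0.66 (SE 0.08). *Cxcl10* stood at 132, 199 and 401 CPM in cluster 7, with the library of sGSN-/-Clec9a-/- highest. *Ccl5*, a chemokine that draws T cells, was at -3.21 (SE 0.50) against the other cDC1s and was not called against the resting clusters, at 0.29. *Ccl6*, a chemokine of myeloid cells, was lower against both, at -0.83 (SE 0.17) and -0.97 (SE 0.14), the former not called after thinning (-0.61) or without the WT library (-0.85). *Cd63*, a tetraspanin of late endosomes, was at -3.14 (SE 0.75), resting on 17 UMIs in cluster 7 and not called without the WT library (-3.46).

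The UMIs of the CXCR3 ligands sat in few cells. The 43 cells of cluster 7 with the most UMIs of each held 97.2% of its *Cxcl10* UMIs and 88.5% of its *Cxcl9* UMIs. Their levels in the cluster are therefore those of a small number of its cells.

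Targets of NF-kB, the factor activated by inflammatory receptors, had medians of opposite sign against the 2 references. Of 21 members, all tested, 1 was called higher in cluster 7 than in the other cDC1s and 6 lower. These were 4.76% and 28.6%, against 10.3% and 4.53% of all genes. The median was -0.14 (-0.26, with 8 lower, without TMM factors). With the resting clusters as reference, 6 were called higher and 1 lower, at a median of 0.20. Against the other cDC1s the higher one was *Traf1*, an adaptor of TNF receptors, at 0.44 (SE 0.11), and it lost its call without TMM factors, after thinning (0.24) and without the sGSN-/-Clec9a-/- library (0.37). *Nfkbia*, the gene of the inhibitor I kappa B alpha, stood at 235, 237 and 225 CPM in cluster 7 against 329, 341 and 269.7 CPM, with -0.30 (SE 0.08). *Nfkbiz*, a nuclear co-factor, had -0.61 (SE 0.14), *Tnfaip3*, the gene of A20, -0.48 (SE 0.10), and *Ier3*, a survival gene, -0.59 (SE 0.13). *Nfkbia* and *Nfkbiz* were not called without the WT library (-0.28 and -0.65) or without the sGSN-/- library (-0.26 and -0.48), nor *Tnfaip3* after thinning (-0.52). *Rel* and *Relb*, subunits of NF-kB, and *Gadd45b*, a stress gene, were not called, at 0.04, -0.57 and 0.08, though *Relb* was with the library as a block and with no filter on low counts, at -0.58 and -0.61.

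Most NF-kB targets were lower than in cluster 9, a group of 162 cells. Against it 903 of 7304 genes were called higher in cluster 7 (12.4%) and 682 lower (9.34%). Of the NF-kB list, 16 of 21 tested were called lower in cluster 7 and the rest were not called, at a median of -1.01 against -0.003 over all genes. *Nfkbiz* had -4.13 (SE 0.16) and *Tnfaip3* -3.37 (SE 0.13), and *Nfkbia* stood at 235, 237 and 225 CPM in cluster 7 against 2149, 1945 and 1662 CPM in cluster 9. *Tnf*, the inflammatory cytokine, had -3.84 (SE 0.17), *Dusp2*, a phosphatase of MAP kinases, -3.51 (SE 0.14), and *Sdc4* -4.05 (SE 0.41). In the same comparison 73 of 74 interferon-stimulated genes were called higher, at a median of 2.08, with *Ifit3* at 5.48 (SE 0.35), *Ifit1* at 5.32 (SE 0.49) and *Fcgr1* at 5.16 (SE 0.39). *Cxcl10* was not called between these clusters, at 0.28 (SE 0.29). Against cluster 10, 15 of 21 tested NF-kB targets were called lower in cluster 7.

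Genes of cDC1 identity stayed close to the other cDC1s. Of 20 members tested, 3 were called higher in cluster 7, *Tlr3*, *Xcr1* and *Batf3*, at 0.49, 0.32 and 0.32. Their share of 15% was near the 10.3% of all genes. The median of 0.09 turned to -0.03 without TMM factors, where 1 was called higher and 2 lower, and with the library as a block 6 were called higher and 1 lower. With the resting clusters as reference 4 were called higher and 5 lower, at a median of -0.09, or 1 higher and 9 lower, at -0.19, without TMM factors. *Naaa* and *Ppt1*, lysosomal hydrolases abundant in cDC1s, and *Cd24a*, a surface glycoprotein, were not called, at 0.07, 0.05 and 0.11. Against cluster 10, *Tlr3* was higher in cluster 7, at 2.42 (SE 0.26).

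Genes of early cDC1s and pre-cDCs depended on the reference, and the other cDC1s include the early clusters 1 and 4. Against the other cDC1s 2 of 12 tested were called higher and 1 lower, at a median of -0.15, or 3 higher and 3 lower with the library as a block. The former shares, 16.7% and 8.33%, were near the 10.3% and 4.53% of all genes. In the comparison with the resting clusters 6 of 12 were called higher and 0 lower, at a median of 1.07, and 6 of 8 were called higher than in cluster 9, at 1.39. Cluster 10 gave the opposite direction, with 0 of 8 called higher in cluster 7 and 5 lower, at a median of -1.11. *Ly6c2*, a GPI-anchored protein of monocytes and progenitors, stood at 28.1, 43.1 and 58.7 CPM in cluster 7 against 8.59, 11.7 and 9.89 CPM in the other cDC1s and 3.41, 4.16 and 5.46 CPM in the resting clusters, with 2.21 (SE 0.22) against the former. The 3 values of cluster 7 were the highest of these 9. High *Ly6c2* was not particular to cluster 7, however. Early cluster 4 had the highest mean of the 12 clusters, at 46.6 CPM. That mean lay within the spread of cluster 7, which had 43.3 ± 15.3 CPM (SD over 3 libraries). *S100a6*, a calcium-binding protein, had 0.52 (SE 0.07). *Ifitm1*, *Ifitm2* and *S100a10* were not called, at -0.56, -0.07 and -0.13. *Ifitm1* was called lower with the library as a block, at -0.57, without TMM factors (-0.68), with no filter on low counts (-0.59) and without the WT library (-0.95). Against the resting clusters *Ifitm1* and *Ifitm2* were called higher, at 1.53 (SE 0.20) and 0.22 (SE 0.07), the latter not without TMM factors (0.12).

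Immediate early and heat shock genes, which tissue digestion can induce, were read as signs of handling. Of 20 immediate early genes tested, 4 were called higher in cluster 7 (20%, against 10.3% of all genes) and the rest not. The median was 0.17 (0.05, with 2 higher and 1 lower, without TMM factors). With the library as a block 12 were called higher and 1 lower. *Fos* had 0.42 (SE 0.08), *Atf3* 0.40 (SE 0.08) and *Btg2* 0.27 (SE 0.07), while *Junb* and *Klf2* were not called, at 0.21 and 0.33. Both were with the library as a block (0.21 and 0.33) and without the sGSN-/-Clec9a-/- library (0.31 and 0.48). *Btg2* lost its call without TMM factors (0.14), after thinning (0.24) and without any of the 3 libraries (0.30, 0.23 and 0.27), and *Atf3* without the sGSN-/- library (0.31). Of 20 genes of heat shock and the unfolded protein response, 3 were called higher (15%, near the 10.3% of all genes). They were *Dnaja1* at 0.74 (SE 0.13), *Hsp90aa1* at 0.43 (SE 0.11) and *Hspa8* at 0.40 (SE 0.07), all chaperones. Their list median of 0.04 turned to -0.08 without TMM factors, where 5 were called lower, and with the library as a block 9 were called higher and 4 lower. *Hsp90aa1* was not called without TMM factors (0.31), after thinning (0.39) or without the sGSN-/- library (0.39). With the resting clusters as reference 0 immediate early genes were called higher and 1 lower, and 2 heat shock genes higher and 4 lower. In that comparison the library as a block gave 5 higher and 7 lower immediate early genes and 8 higher and 6 lower heat shock genes, and without TMM factors 0 and 6 of the former and 1 and 6 of the latter were called higher and lower. Against cluster 10, 11 immediate early genes were called higher in cluster 7, while 12 were called lower against cluster 9. The study describes resting clusters 2, 3 and 6 by *Fos*, *Jun* and *Dusp1*, and cluster 5 by unfolded protein response genes. *Fos* had its highest mean in cluster 3, at 5288 ± 379 CPM (SD over 3 libraries). The resting clusters are thus not a reference low in these genes. The part of handling in the other differences was not tested.

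Of 16 cell cycle genes tested, 6 were called higher in cluster 7 (37.5%, against 10.3% of all genes) and the rest were not called. The median was 0.50, or 0.37, with 5 called higher, without TMM factors. *Mcm6*, a subunit of the replicative helicase, had 1.10 (SE 0.13), *Stmn1*, which takes microtubules apart, 0.70 (SE 0.12) and *Hmgb2*, a chromatin protein, 0.54 (SE 0.06). The clamp gene *Pcna* and the tubulin gene *Tubb5* were not called, at 0.28 and 0.11, though *Pcna* was with the library as a block, with DESeq2 and without doublets, at 0.29 in each.

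Markers of other cells that a sort of dendritic cells could hold were counted list by list. For each list the shares over all genes were 10.3% called higher and 4.53% lower. Of 12 markers of plasmacytoid dendritic cells, 6 were tested and 2 were called higher, *Tcf4*, the factor of that lineage, at 1.28 (SE 0.09), and *Pacsin1*, a membrane-bending protein, at 1.19 (SE 0.25). The other 4 were not called and the median of the 6 was -0.33, with 2 members lower in all libraries of cluster 7 than in any of the other cDC1s. This direction depended on the reference. Against the resting clusters 2 of 6 were called higher and 1 lower, at a median of 0.52. The list summed to 105, 101 and 87.2 CPM in cluster 7 and to 64, 65 and 59.7 CPM in the other cDC1s. *Tcf4* was its most abundant gene in each library, at 81.1, 77.2 and 63.3 CPM against 35.2, 34.1 and 30.7 CPM, and 6, 4 and 6 of the 12 members were at 0 in cluster 7. *Tcf4* thus made up most of the sum. The call of *Pacsin1* was lost after thinning (1.18), without the WT library (1.26) and without the sGSN-/- library (1.01).

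Of 10 cDC2 markers, 9 were tested and 3 were called lower in cluster 7, at a median of -0.52, with summed levels of 56.6, 49.7 and 66.1 CPM against 97, 88.8 and 89.7 CPM. *Cd209a* was among them, at -0.52 (SE 0.13), but not without the WT library (-0.42), the sGSN-/- library (-0.58) or the sGSN-/-Clec9a-/- library (-0.55), nor without doublets (-0.34) or after thinning (-0.25), and *Clec10a*, a galactose-type lectin, was not called at -0.22. Of 15 monocyte and macrophage markers, 13 were tested, 2 were called higher, *Fcgr1* and *Ly6c2*, and 3 lower. The lower ones were *Lyz2*, the gene of lysozyme and the most abundant of the list, at -0.52 (SE 0.09), *Ccr2*, the receptor of CCL2, at -0.61 (SE 0.09), and *Cd14*, a co-receptor for lipopolysaccharide, at -0.73 (SE 0.15). The list summed to 867, 791 and 956 CPM in cluster 7 against 1298, 1118 and 1246 CPM in the other cDC1s, so both lists were lower in sum in cluster 7 in every library. This depended on the reference for cDC2 markers, which summed to 50.6, 42.4 and 43.9 CPM in the resting clusters, below cluster 7 in every library, with 1 of 7 called higher and 0 lower, at a median of 0.24. Monocyte and macrophage markers summed to 1390.5, 1253 and 1317 CPM there, with 2 of 12 called higher and 3 lower, at 0.03.

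Of 10 NK cell markers, 6 were tested and 1 was called higher, *Klrk1*, the gene of the activating receptor NKG2D, at 279, 232 and 239.9 CPM against 158, 165 and 146 CPM and 0.80 (SE 0.08). *Klrk1* made up most of the NK list, which summed to 293, 278 and 260.5 CPM against 171, 218 and 168 CPM. *Gzmb*, the gene of granzyme B, and *Nkg7*, a protein of cytotoxic granules, were not called. T cell markers summed to 5.26, 11.4 and 1.71 CPM in cluster 7 against 4.34, 10.02 and 5.22 CPM in the other cDC1s, B cell markers to 0.439, 0.947 and 0 CPM and 2.50, 1.96 and 1.32 CPM, neutrophil markers to 0.439, 0 and 0.570 CPM and 0.395, 0.466 and 0.101 CPM, and fibroblast and tumour cell markers to 2.19, 6.63 and 3.42 CPM and 3.22, 4.29 and 2.59 CPM. Of these last lists, 1 member each of the T cell, B cell and fibroblast lists was tested and none was called. The sums were low throughout, and cluster 7 was not above the other cDC1s in all 3 libraries for any of the last 4 lists.

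Transcripts of the sex chromosomes were read because each library pools both sexes. None of the 5 listed was called in cluster 7 against the other cDC1s. *Xist*, transcribed from the inactive X, and the Y-linked *Ddx3y* had -0.12 (SE 0.17) and 0.08 (SE 0.29). Among cells with UMIs of *Xist* or of Y-linked genes but not of both, those with Y-linked UMIs were 15.4% (Clopper-Pearson 95% interval 9.82 to 22.6) in cluster 7 and 19.6% (17.8 to 21.4) in the other cDC1s of WT. In sGSN-/- it was 49.5% (39.5 to 59.5) against 35.3% (32.7 to 37.9), and in sGSN-/-Clec9a-/- 27.3% (19.2 to 36.6) against 23.3% (21.1 to 25.6). The shares did not follow the sexes of the pools, the WT library having the most males and the lowest share. A single UMI sufficed, and no background of free RNA was taken off, so the shares are not those of male cells.

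Among genes outside the interferon lists, *Sct* stood out. *Sct* (ENSMUSG00000038580, chromosome 7, 141278330 to 141279133, minus strand) encodes secretin, a gut hormone, and lies near *Irf7* on chromosome 7. It stood at 74.1, 66.3 and 53 CPM in cluster 7, at 5.07, 12.6 and 2.94 CPM in the other cDC1s and at 1.89, 1.93 and 2.39 CPM in the resting clusters, with log2 fold changes of 3.38 (SE 0.36) and 5.09 (SE 0.16). Its mean over libraries was 64.5 ± 10.7 CPM in cluster 7 and 99 ± 76.7 CPM in cluster 8, which do not differ beyond their spread. *Cdh15*, the gene of M-cadherin, a muscle adhesion protein, was at 26.3, 50.2 and 36.5 CPM in cluster 7 against 1.38, 0.932 and 2.13 CPM, with 4.80 (SE 0.29). The cluster with the next highest mean of *Cdh15* stood at 3.35 ± 5.80 CPM, and *Cdh15* overlaps *Gm20388*, so part of its reads could belong to that model. The 43 cells of cluster 7 richest in it held 60.9% of its *Cdh15* UMIs, and those richest in *Sct* held 74.1% of its UMIs.

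Of the genes with the smallest values against the other cDC1s, some were lower against the resting clusters as well. *Cd81*, a tetraspanin, had -0.82 (SE 0.10) and -1.01 (SE 0.10), and *Ifngr1* -0.82 (SE 0.09) and -0.91 (SE 0.09). *Samsn1*, an adaptor that restrains B cell signalling, was at 17.5, 17 and 16 CPM in cluster 7, the lowest mean of the 12 clusters, and at -2.20 (SE 0.31) against the other cDC1s, but was not called against the resting clusters, at -0.27. Against the other cDC1s *Tmem123*, a mucin-like surface protein, had -1.15 (SE 0.18), *Mt1*, a metallothionein that binds zinc and copper, -0.71 (SE 0.15) and *Cd44*, the hyaluronan receptor, -0.67 (SE 0.11), *Mt1* not being called without the sGSN-/-Clec9a-/- library (-0.66). The other cDC1s include cluster 8, where *Tmem123* had a mean of 910 CPM. The next highest cluster stood at 78.5 CPM and cluster 7 at 33.1 CPM. Against the resting clusters the lowest values by the naming rule were those of *Cd81*, *Ccl6*, *Pglyrp1*, a peptidoglycan-binding protein, at -0.96 (SE 0.13), *Fgfr1*, a fibroblast growth factor receptor, at -0.94 (SE 0.12), and *Ifngr1*.

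Levels over the 12 clusters were then ordered for key genes. Cluster 7 had the highest mean of *Irf7*, 1128 ± 141 CPM, with 370.2 ± 53.5 CPM in cluster 10 next, and of *Bst2*, 821 ± 25.4 CPM, with 400.1 ± 105 CPM in cluster 8 next. It was also highest for *Isg15*, 1394 ± 130.0 CPM, ahead of cluster 8 at 606 ± 196 CPM. For *Stat2* the mean of 199 ± 19.6 CPM was followed by cluster 10 at 180.2 ± 27.7 CPM, with means that lay within each other's SDs. The order of clusters 7 and 10 was thus clear for *Irf7* and not for *Stat2* or *Fcgr1*, the last at 63.2 ± 9.70 CPM against 49.4 ± 18.4 CPM. *Cxcl9* placed cluster 7 second, 542 ± 40.4 CPM against 4832 ± 130.1 CPM in cluster 10.

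The genes most like the markers in their levels were found over the 36 sums of 3 libraries and 12 clusters. Pearson's r of log2(CPM + 1) with the summed level of *Ifit2*, *Isg20* and *Isg15* was 0.950 for *Irf7*, 0.931 for *Ifi213*, 0.919 for *Oasl2*, 0.908 for *Bst2* and 0.907 for *Rsad2*. The next values were 0.897 for *Sct*, 0.885 for *Ifit1*, 0.876 for *Ifit3*, 0.865 for *Ifi47* and 0.864 for *Zbp1*. Over the 4444 genes compared the median r was 0.0121. The sums share libraries and cells of 1 lineage and so are not independent. Over the 33 sums without cluster 7 the values were 0.897 for *Irf7*, 0.916 for *Oasl2*, 0.850 for *Sct* and 0.753 for *Zbp1*, the lowest of the 10. The 10 genes were chosen over sums that include these 33, so this is no test.

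Within cluster 7, cells with a larger share of interferon-stimulated UMIs had a larger share from some lists and a smaller share from others. Spearman's rho over the 154, 134 and 134 cells of the 3 libraries was 0.593, 0.543 and 0.495 with the GBP and IRG list and 0.342, 0.256 and 0.346 with MHC class I genes. It was -0.136, -0.196 and -0.112 with MHC class II genes, -0.105, -0.102 and -0.141 with genes of cDC1 identity and -0.179, -0.177 and -0.0552 with cell cycle genes. With UMIs per cell it was -0.248, -0.0353 and -0.233, so deeper cells had, if anything, a smaller share. The points are cells of 1 library each and share its depth, and the lists have no gene in common with the interferon-stimulated list in any case given. Markers of other cells also moved with the share, with 0.305, 0.241 and 0.276 for NK cell markers and 0.230, 0.168 and 0.119 for those of plasmacytoid dendritic cells, as did chemokines (0.258, 0.198 and 0.217) and NF-kB targets (0.134, 0.171 and 0.272), while cDC2 markers were negative (-0.161, -0.269 and -0.0337). The 3 libraries differed in sign for costimulation, heat shock and monocyte genes, among others.

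Genotypes could only be set side by side. The listed interferon-stimulated genes made up 2.31% of the UMIs of cluster 7 in WT (Poisson 95% interval 2.29 to 2.33), 2.40% in sGSN-/- (2.38 to 2.42) and 2.22% in sGSN-/-Clec9a-/- (2.20 to 2.24). In the other cDC1s the shares were 0.651, 0.677 and 0.652%. The median log2 ratio of the 77 genes between cluster 7 and the other cDC1s was 2.12, 2.15 and 1.94. The 3 libraries were thus close to each other, although their intervals did not overlap, and with 1 library each no difference between genotypes was tested. Over genes at 50 CPM or more the median absolute log2 ratio of sGSN-/- to WT was 0.13 in cluster 7 (2519 genes) and 0.07 in the other cDC1s, and that of sGSN-/-Clec9a-/- to sGSN-/- was 0.13 (2469 genes) and 0.09. Cluster 7 held fewer UMIs than the other cDC1s, and the part of depth in this was not tested.

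At 50 CPM or more, the largest ratio of sGSN-/- to WT was that of *Cxcl2*, a chemokine that draws neutrophils, at 22.4 (16.7 to 29.4), 63 (52.7 to 74.6) and 21.7 (15.3 to 29.7) CPM in cluster 7 with Poisson 95% intervals. Its log2 ratio was 1.47 in cluster 7 and -0.19 in the other cDC1s. Of its 133 UMIs in cluster 7 of sGSN-/-, 82 came from a single cell, and the 51 UMIs of the other cells make 24.2 CPM, close to WT. The ratio thus rests on 1 cell, which Poisson intervals do not cover. *Cdh15* had 0.92 in cluster 7 and -0.39 in the others. *Serpina3g* had 0.69 and 1.40, and *Rgs1*, a regulator of G protein signals, 0.69 and 0.48. Among the smallest ratios, *Tle4*, a co-repressor, had -1.12 and -0.44, and *Mt1*, at 341, 180.4 and 244 CPM in cluster 7, -0.92 and -0.16.

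Between sGSN-/-Clec9a-/- and sGSN-/-, *Clec9a* itself had the smallest ratio at 50 CPM or more. *Cxcl10* stood at 132 (118 to 148), 199 (180.3 to 219) and 401 (372 to 432) CPM in cluster 7, with log2 ratios of 1.01 in cluster 7 and 0.28 in the other cDC1s. Its UMIs came from few cells, as given above, and Poisson intervals do not cover that. *Furin*, a protease that cuts precursor proteins, had 1.12 and 0.15, and *Ccl3*, a relative of CCL4, 0.89 and -0.03. The 43 cells of cluster 7 richest in *Ccl3* held 92.9% of its UMIs, so this ratio also rests on few cells. *Cebpb*, an inflammatory transcription factor, had -1.94 and -1.65, and *Jdp2*, a partner of JUN, -1.58 and -1.07. These last ratios were of similar size inside and outside cluster 7.

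To compare cells on genes that did not choose them, all cDC1s with at least 3900 UMIs were thinned to that number, and in each library the cells with the highest sum of *Ifit2*, *Isg20* and *Isg15* were picked without regard to cluster, as many as the library had cells of cluster 7 at that depth. This took 411 of 5518 cells, 152, 132 and 127 per library, of which 264 belonged to cluster 7, and the lowest sums among the picked cells were 4, 5 and 4 UMIs. The 3 marker genes were left out and all others tested. Of 9110 genes, 782 were called higher in the picked cells (8.58%) and 174 lower (1.91%), 81.8% of the calls being higher. Without TMM factors these were 584 and 357, 62.1% higher, and the median of all genes moved from -0.02 to -0.14. Leaving out a library in turn brought the calls to 455, 545 and 562 higher and 47, 95 and 78 lower, 90.6, 85.2 and 87.8% higher.

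Of the interferon-stimulated list, 72 of 72 members tested were called higher in the picked cells, at a median of 2.06 against -0.02 over all genes tested. *Ifit3* stood at 130.2, 234 and 132 CPM in the picked cells against 1.22, 0.522 and 2.50 CPM in the rest, a log2 fold change of 6.95 (SE 0.31) with an edgeR adjusted p (Benjamini-Hochberg) of 2.56e-12, higher in 3 of 3 libraries. *Irf7* stood at 1099, 1368 and 1032 CPM against 129, 134 and 126 CPM, with 3.28 (SE 0.10) and an edgeR adjusted p (Benjamini-Hochberg) of 1.96e-14, higher in 3 of 3 libraries. *Rsad2* stood at 244, 290.3 and 302 CPM against 11.5, 15.3 and 13.9 CPM, with 4.49 (SE 0.14) and an edgeR adjusted p (Benjamini-Hochberg) of 1.75e-14, higher in 3 of 3 libraries. The library values of picked and remaining cells did not overlap in any of these genes. *Ifit1*, *Oasl1* and *Sct* were the other genes with the largest changes by the naming rule, at 5.59 (SE 0.31), 4.37 (SE 0.20) and 4.86 (SE 0.34).

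Further members of the pathway were called in the picked cells. By edgeR with Benjamini-Hochberg adjustment and each higher in 3 of 3 libraries, *Usp18* had 3.25 (SE 0.14) and adjusted p of 1.77e-12, *Zbp1* 2.58 (SE 0.11) and 1.18e-12, and *B2m* 0.79 (SE 0.09) and 1.17e-06. *Cxcl9* stood at 666, 697 and 1008 CPM against 81.9, 127 and 82.5 CPM, with 3.15 (SE 0.17) and an edgeR adjusted p (Benjamini-Hochberg) of 2.54e-11, higher in 3 of 3 libraries. *Ifngr1* stood at 140.4, 123 and 119 CPM against 301, 267 and 258 CPM, with -0.99 (SE 0.11) and an edgeR adjusted p (Benjamini-Hochberg) of 1.46e-06, lower in 3 of 3 libraries. It was lower here as in cluster 7. *Nolc1*, a nucleolar protein, *Dbn1*, an actin-binding protein, *Trf*, the gene of transferrin, and *Fcrla*, an Fc receptor-like protein, were the other genes with the smallest values by that rule, at -1.05 (SE 0.19), -1.03 (SE 0.19), -0.94 (SE 0.16) and -1.04 (SE 0.22), and *Fcrla* was not called without the WT library.

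By list, 21 of 25 GBP and IRG genes tested were called higher in the picked cells, at a median of 2.67, and 17 of 24 MHC class I genes higher and 1 lower, at 0.64 (0.53 without TMM factors). For comparison, 8.58% of all genes tested in these cells were called higher and 1.91% lower. Sensors had 7 of 15 called higher, IRF and STAT factors 8 of 15, feedback inhibitors 4 of 10, and receptors and kinases 2 of 8, with 1 lower. Those 2 were *Ifnar1* and *Jak2*, at 0.51 and 0.34, and both lost their call without TMM factors (0.40 and 0.23). Chemokines and the CCR7 programme differed from cluster 7, with 12 of 20 called higher and 1 lower, at a median of 1.24. NF-kB targets had 10 of 21 called higher and 0 lower, at 0.35, and genes of costimulation, checkpoints and cytokines 13 of 21 higher and 0 lower, at 0.95. *Ccr7* had 2.02 (SE 0.31) in the picked cells and -3.60 (SE 0.71) in cluster 7 against the other cDC1s, and *Il12b* 1.93 (SE 0.27) and -3.02 (SE 0.53). Of the 411 picked cells, 147 lay outside cluster 7, 44 of them in cluster 8, and their part in these values was not tested.

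Many interferon-stimulated genes are neighbours. Of the 80 members placed on the genome, 26 lay in 6 runs of at least 3 members with gaps of no more than 500000 bases. The longest run, 7 p200 genes on chromosome 1 from 173566283 to 174031810, runs from *Ifi213* to members beyond *Ifi204*, and 7 of its 7 members were called higher in cluster 7 than in the other cDC1s. The IFIT run on chromosome 19 from 34550694 to 34650009 holds 5 members, of which 4 were called higher. Runs of 4 members each hold Schlafen genes on chromosome 11, from 82951349 to 83122670, and oligoadenylate synthetase genes on chromosome 5, from 120730333 to 120907521. Relatives within a run, such as the p200 genes, can share sequence, and their counts may then not be independent of each other.

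The 250 bases before the start of each gene were searched for the letters of the interferon-stimulated response element, GAAANNGAA or TTCNNTTTC on the other strand, and of the gamma-activated site, TTCNNNGAA, which reads the same on both strands. Sequences are those of RefSeq on GRCm38.p6, and where a gene has more than 1 start any of them could match. Of the 80 interferon-stimulated genes, 65 had an entry (81.2%) and 28 of these held the response element letters (43.1%), against 2211 of all 27025 genes (8.18%). The gamma-activated letters were in 5 of the 65 (7.69%) and in 2197 of all genes (8.13%). Of the 12 genes with the largest change by the naming rule, 11 had an entry and 5 held the response element letters, and of the 12 with the smallest change, 10 had an entry and 0 held them. For MHC class I genes the count was 4 of 21 (19.0%). Of the 33 members of the GBP and IRG list, 21 had an entry (63.6%), too few to stand for the list, so the search is void for it as a whole. Of those 21 members, 15 held the response element letters and 11 the gamma-activated letters. A match is a run of letters and not a bound site.

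The promoters of those 5 genes are shown because they hold the letters and belong to the largest changes by the naming rule. Each runs 5′ to 3′ on the strand of its gene and ends at the base before the start, and capitals mark the response element letters, which overlap each other in *Isg15* and, for 2 of the 3 matches, in *Ifit1*.
Isg15, chr4:156200819-156201068, minus strand: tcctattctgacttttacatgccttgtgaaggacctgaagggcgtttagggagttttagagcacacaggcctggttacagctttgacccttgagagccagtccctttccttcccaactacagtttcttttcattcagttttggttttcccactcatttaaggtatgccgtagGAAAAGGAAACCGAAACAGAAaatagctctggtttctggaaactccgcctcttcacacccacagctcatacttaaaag
Ifit3, chr19:34583279-34583528, plus strand: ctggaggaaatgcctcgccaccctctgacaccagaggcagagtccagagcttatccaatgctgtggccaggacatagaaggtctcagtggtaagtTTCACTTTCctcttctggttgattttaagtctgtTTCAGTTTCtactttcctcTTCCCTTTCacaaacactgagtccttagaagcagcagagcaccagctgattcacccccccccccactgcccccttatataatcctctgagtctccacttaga
Ifit1, chr19:34640639-34640888, plus strand: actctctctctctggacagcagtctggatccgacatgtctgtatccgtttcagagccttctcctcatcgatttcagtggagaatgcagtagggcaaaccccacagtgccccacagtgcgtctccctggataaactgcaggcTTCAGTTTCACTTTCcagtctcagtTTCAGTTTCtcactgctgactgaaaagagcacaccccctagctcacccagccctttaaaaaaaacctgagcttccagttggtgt
Rsad2, chr12:26456453-26456702, minus strand: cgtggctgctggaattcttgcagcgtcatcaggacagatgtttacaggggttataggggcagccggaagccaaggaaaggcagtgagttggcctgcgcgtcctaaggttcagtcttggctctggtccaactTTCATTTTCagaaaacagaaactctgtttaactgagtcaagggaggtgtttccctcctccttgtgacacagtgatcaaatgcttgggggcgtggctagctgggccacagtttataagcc
Ifi213, chr1:173599273-173599522, minus strand: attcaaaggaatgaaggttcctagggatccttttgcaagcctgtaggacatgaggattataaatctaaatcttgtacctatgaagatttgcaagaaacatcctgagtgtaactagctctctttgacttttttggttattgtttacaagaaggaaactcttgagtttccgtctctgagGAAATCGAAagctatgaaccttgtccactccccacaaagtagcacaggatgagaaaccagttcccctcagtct
*Isg15*, *Ifit3* and *Ifit1* held 3 matches each and *Rsad2* and *Ifi213* 1 each. The match closest to the start began 66 bases before it in *Isg15*, 102 in *Ifit3*, 84 in *Ifit1*, 119 in *Rsad2* and 73 in *Ifi213*. *Isg20* and *Irf7*, both high in cluster 7, held none of the response element letters in this window.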

How the data were processed

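For each of 3 droplet libraries the authors deposited a matrix of UMI counts, unnormalised, made with Cell Ranger 6.0.1 from reads aligned to mm10. They also deposited a table of 5806 cDC1s with library and cluster, called with Seurat (version 4.0.0 in the labels, version 3 in R 4.0.0 in the study's methods) after integration of the libraries, and the position on a UMAP, a score without units that was not used. The UMI total in the table equalled the matrix sum in 327 of the 422 cells of cluster 7 and differed by at most 3 in the rest.

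Counts of the cells of cluster 7, the other cDC1s, the resting clusters, cluster 9 and cluster 10 were summed per library with Python 3.11.15 and scanpy 1.11.5 (numpy 2.4.6, scipy 1.17.1, pandas 2.3.3), and plotted with matplotlib 3.10.9. For the comparisons, low counts were filtered with filterByExpr, scaling was by TMM, and edgeR 4.0.16 (R 4.3.3) gave quasi-likelihood F-tests, with p adjusted by Benjamini-Hochberg and a threshold of 0.05. The SE of a log2 fold change is its size over the square root of F. Only the groups compared entered a fit, and the picked cells were compared in the same way on thinned counts, ties being broken by barcode. The code was tested on simulated data with known changes. Alternatives were a fit without doublets, thinning of every cell to 3900 UMIs, omission of each library, the library as a block, all genes with any count, DESeq2 1.42.0, and library size in place of TMM factors. Thinning left out 288 of the 5806 cDC1s, 11 of them in cluster 7.

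Groups of cells from 1 library share its pool of mice and are thereby paired. Their deviations from the means of the groups had correlations of 0.155, 0.135 and 0.154 for cluster 7 and the other cDC1s, 0.154, 0.122 and 0.166 for the resting clusters, 0.101, 0.0262 and 0.082 for cluster 10, and 0.0625, 0.0397 and 0.126 for cluster 9.

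Scrublet's automatic threshold marked 536, 3 and 0 barcodes in the 3 libraries. As it had not worked in every library, the 6% of barcodes with the highest scores were taken in each, 766, 490 and 556 barcodes.

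Genes were named by a rule: *Ifit2*, *Isg20* and *Isg15*, the 12 largest and 12 smallest log2 fold changes against the other cDC1s and the 5 largest and smallest of each other comparison, among genes called, changed the same way in all 3 libraries and at a mean of 50 CPM or more in the higher group. To these came the 4 members of each list with the highest level and the 4 with the largest change at 20 CPM or more, the 5 largest and smallest ratios between genotypes above a minimum of 50 CPM, ranked after adding 0.5 CPM, and the 10 genes most like the markers. Some genes that meet this rule are not reported here. The members of cluster 7 and the lists were chosen with earlier results of these data known. Among the 32285 genes 38 symbols occur more than once, and these were told apart by identifier.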

Additional observations from a re-analysis of the deposited data

How the results depend on the processing

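The number of genes called moved with the libraries and the depth used, and fewer samples or fewer UMIs entered those fits. Against the other cDC1s 1603 genes were called, and leaving out each library in turn gave 909 (without WT) to 1128, with 974 without sGSN-/-, while cells thinned to 3900 UMIs gave 777. Against the resting clusters 1967 were called, 1227 (without sGSN-/-) to 1361 with a library left out, 1237 without WT, and 994 after thinning. Against cluster 10 the count of 675 became 345 (without sGSN-/-) to 481, 388 without WT, and 296 after thinning. Against cluster 9 the 1585 became 1034 with DESeq2, the cause of which was not tested, and 725 after thinning. In the picked cells the 956 became 502 (without WT) to 640.

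The median log2 fold change of the interferon-stimulated genes, 2.27, was 2.14 without TMM factors and lay between 2.17 and 2.32 in the other settings tried. With the library as a block, the pairing that shared pools of mice give, 2099, 2477, 644, 1654 and 1046 genes were called against the other cDC1s, the resting clusters, cluster 10, cluster 9 and in the picked cells, all within 1.5 times of the counts without it. Of the 99 named genes called against the other cDC1s, 99 were also called with the block and with DESeq2, 89 without TMM factors, 85 after thinning, 80 without WT, 85 without sGSN-/- and 93 without sGSN-/-Clec9a-/-. Of the 70 named genes not called, 25 were called with the block, and none of the 99 changed sign in any setting. The shares of cluster 7 and its summed interferon-stimulated level stayed within their intervals in every setting tried.

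Depth limits what cluster 7 can show, since a gene needs about 0.488 CPM to reach 3 UMIs over its 3 libraries, and cluster 10 holds fewer UMIs still.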
